A study of Mus musculus with 14 samples.

Results

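The genes described here encode the mitochondrial respiratory chain and ATP synthase, measured in mammary tumours of Brg1+/- mice. They were chosen by symbol alone. A gene was a member if its symbol began with Nduf, Uqcr, Sdha, Sdhb, Sdhc, Sdhd or Atp5, if it was Cox4 to Cox8 followed by letters or numbers, or if it was Cycs or Cyc1. This gave 92 genes of 16879 that had 1 symbol, read by 95 of 22575 probes, and all 92 were among the 16877 genes tested. Of the members 38 belong to complex I, 8 to complex II, 9 to complex III, 19 to complex IV and 17 to complex V, the ATP synthase, and Cycs is the mobile carrier cytochrome c. Ndufa4 and its relative Ndufa4l2 were counted with complex IV, where Ndufa4 protein is now placed. By role, 76 members are structural subunits or the carrier, and 16 are assembly factors, tissue or condition isoforms or a supercomplex factor. The symbol rule reaches nuclear genes only, so the subunits encoded by mitochondrial DNA are not part of the set.

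RNA of 12 tumours, T55 to T2134, was hybridised to 14 two-colour arrays. Tumours T172 and T284 have a second array marked biorep, and the other 10 have 1 array each. Every tumour is from the Brg1+/- genotype, with 1 working copy of the gene for Brg1, a chromatin remodelling ATPase, and the labels also carry the word MIXED, which they do not explain. There is no Brg1+/+ tumour and no normal mammary gland, so the only comparisons are between tumours and with the common reference RNA. Tumour RNA was in Cy5 and an RNA named Mouse Reference in Cy3 on every array. Values are log2 ratios of tumour over that reference, base 2 being inferred from their range. The labels give neither the tissues in the reference, nor whether tumours came from separate animals, nor what was repeated for the second arrays. P-values between tumours therefore measure spread between arrays that may be technical.

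The respiratory chain sits in the inner mitochondrial membrane. Complex I takes electrons from NADH and complex II takes them from succinate. Complex III passes them to cytochrome c, and complex IV hands them to oxygen. Complexes I, III and IV pump protons, and complex V uses the proton gradient to make ATP. Most complexes combine a few catalytic subunits with many accessory ones, and several complex IV subunits exist as a general form and a form typical of muscle, heart, testis or other settings. Tumours often run glycolysis at a high rate even with oxygen present, while most keep a working respiratory chain.

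Each array had values for 22501 to 22566 probes, and array medians lay between 0.0 and 0.018, so a ratio below 0 is a ratio below that of the array's middle probe. The ratios carry no signal level, so weakly hybridised probes cannot be recognised. As a check of the tissue, the luminal keratins Krt8 and Krt18 were far below the reference in T176, at -3.53 and -4.25. In the other 11 tumours Krt8 lay between -0.45 and 2.97 and Krt18 between 1.14 and 2.96. All 6 luminal and simple epithelial markers had their lowest ratio in T176, Krt19 at -4.12 and Elf5 at -2.23 among them, and none of the 6 was above the reference there. Luminal markers thus set T176 apart from the other 11 tumours. Whether this bears on its label of mammary tumour was not tested. The 3 basal markers were not at their lowest in T176, where Krt14 was at 0.78, Krt5 at -1.67 and Trp63 at -2.69. Markers of other cells varied too. The limma F-test between tumours called 6 of 6 luminal, 3 of 3 basal, 3 of 3 macrophage, 3 of 3 lymphocyte, 4 of 6 white fat, 1 of 3 brown fat, 4 of 12 skeletal muscle and 1 of 6 slow and cardiac muscle markers, against 18.4% of all genes. The basal genes Trp63, Krt14 and Krt5 were lowest in T172, at -3.15, -2.60 and -3.61. Plin1, Adipoq and Cidec, genes of fat cells, were highest in T221, at -2.22, -1.38 and -1.79. The lymphocyte genes Cd3d and Cd8a were highest in T646, at 1.53 and 1.51, Cd79b in T372 at 2.08, and the macrophage gene Lyz2 in T135 at 3.34. In a fit without T176, added after the data were seen, Krt18, Cd68 and Tnnt1 were no longer called (limma adjusted p 0.0991, 0.174 and 0.0699). In bulk tumour RNA, fewer cells of a type and less RNA per cell cannot be told apart.

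Respiratory chain genes as a group lay below the reference RNA. The median over the 92 members of the mean log2 ratio was -0.71, against 0.01 over all genes tested. Of the 92, 58 (63.0%) were below the reference in all 12 tumours, while 14.5% of all genes tested were. Only Sdhaf3, an assembly factor of complex II, was above it in all 12 tumours (1.09% of the members, against 9.33% of all genes). A ratio below -1, a 2-fold deficit, was present in all 12 tumours for Cox8b, Cox6a2, Cox7a1, Sdhb and Cox5a, or 5.43% of the members against 4.71% of all genes. No test is attached to these shares, because the members are not replicates and the reference is no control tissue.

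Medians spanned a wider range by role than by complex, but several roles hold 5 genes or fewer. The median mean ratio was -0.66 for complex I, -0.73 for complex II, -0.92 for complex III, -0.75 for complex IV and -0.65 for complex V. With structural subunits only, complex II was at -1.16. All 10 core catalytic subunits of complexes I to III were below the reference in all 12 tumours, with a median of -1.33. The 35 accessory subunits of complexes I and III had a median of -0.64, and 20 of them were below in every tumour. The 8 assembly factors among the members, which help build a complex without staying in it, had a median of -0.33, and 2 of them were below in every tumour. The core catalytic label was used in complexes I to III only. In complex V the 5 subunits of the F1 part, which holds the catalytic beta subunit, had a median of -0.57. Its 5 membrane domain subunits were lower, at -0.88, and its 4 peripheral stalk and 3 c-ring subunits were at -0.50 and -0.69. The 11 general subunits of complex IV were at -0.80. The plot of mean ratios by complex shows these values with their spread.

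**Figure D1:**
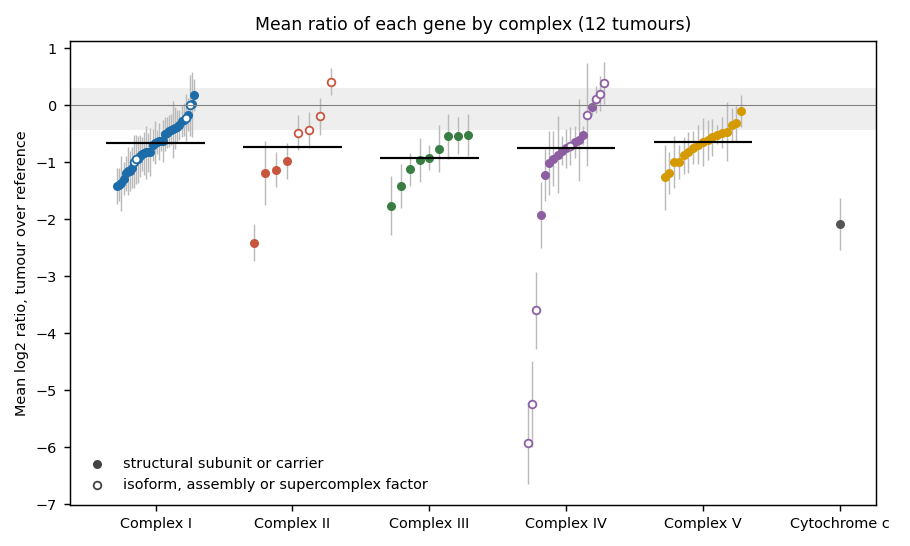
Mean log2 ratio of tumour over reference over 12 tumours (vertical axis) of each of the 92 genes, grouped by complex; whiskers are the SD over tumours, black bars the median of a complex, the grey band the quartiles of all genes tested. Filled circles are structural subunits and the carrier, open circles isoforms, assembly and supercomplex factors; complex medians lie between -0.92 and -0.65, and 3 open circles of complex IV (Cox8b, Cox6a2 and Cox7a1) lie below -3.

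In complex I, ratios of the 38 genes ran between -1.42 and 0.18 on average, and 22 were below the reference in all 12 tumours. The lowest mean was that of the accessory subunit Ndufc1, at -1.42 ± 0.32 (SD, n = 12), with tumours between -1.87 and -0.92 and a median of -1.47. Ndufs1, which carries iron-sulphur clusters of the electron path, averaged -1.39 ± 0.29 (n = 12), with a lowest tumour of -1.96, a median of -1.40 and a highest tumour of -0.85. Neither gene reached 0 in any tumour. The flavin-binding subunit Ndufv1 averaged -1.29 and its partner Ndufv2 -1.37, and both were below the reference in all 12 tumours. At the other end stood Ndufa3, an accessory subunit, at 0.18 ± 0.28 (n = 12), above the reference in 8 tumours and below it in 4. Ndufab1, the mitochondrial acyl carrier protein that also serves lipoic acid and iron-sulphur cluster synthesis, averaged 0.02 ± 0.57 (n = 12). Its tumours lay on both sides of 0, with T160, T2134 and T55 at 0.75, 0.72 and 0.66 and T135 and T176 at -0.94 and -0.70. The limma F-test did not call it (adjusted p 0.298), and the arrays of T284 gave -0.46 and 0.67.

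Complex II, succinate dehydrogenase, is also an enzyme of the citric acid cycle. Its iron-sulphur subunit Sdhb had a mean ratio of -2.41 ± 0.33 (SD, n = 12), with a lowest tumour of -2.92, a median of -2.40 and a highest tumour of -1.73 in T176, with T55 next at -2.13. The flavoprotein subunit Sdha averaged -1.18 ± 0.56 (n = 12) and ranged between -2.13 in T221 and -0.46 in T920. The membrane anchors Sdhc and Sdhd, which hold the haem and help form the quinone site, averaged -0.98 ± 0.32 and -1.13 ± 0.31 (n = 12 each). All 4 subunits were below the reference in every tumour, with a median of -1.16. The 4 assembly factors lay higher. Sdhaf4 averaged -0.48, Sdhaf1 -0.43 and Sdhaf2, which is needed to attach the flavin to Sdha, -0.19. Sdhaf3, which helps mature Sdhb, averaged 0.41 ± 0.24 (n = 12) and ran between 0.03 in T135 and 0.75 in T920.

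In complex III, 8 of 9 genes were below the reference in all 12 tumours. Cyc1, the haem-bearing cytochrome c1, averaged -1.76 ± 0.52 (SD, n = 12), with a lowest tumour of -2.42, a median of -1.77 and a highest tumour of -0.66. T2134 was the tumour at -0.66, and the next highest, T55, was at -1.29. The Rieske iron-sulphur protein Uqcrfs1 averaged -1.42 ± 0.39 (n = 12). The hinge protein Uqcrh and the subunit Uqcrb had the highest means, -0.53 ± 0.37 and -0.54 ± 0.32 (n = 12 each). Uqcrc1 was the member with tumours on both sides of 0, at 0.17 in T2134 and 0.03 in T284. Cycs, the soluble carrier between complexes III and IV, averaged -2.09 ± 0.46 over the 11 tumours with a value, all of them below the reference, and had none in T160, where 1 of its 2 probes was missing.

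In complex V, 11 of 17 genes were below the reference in all 12 tumours. Atp5b, the catalytic beta subunit of the F1 head, averaged -1.26 ± 0.57 (SD, n = 12), with a lowest tumour of -2.38 in T2023, a median of -1.22 and a highest tumour of -0.48 in T2134. Atp5k, a small subunit of the membrane part, averaged -1.19 ± 0.37 (n = 12). Atp5d, the delta subunit of the central stalk, averaged -0.32 ± 0.31 (n = 12). The 3 genes Atp5g1, Atp5g2 and Atp5g3 encode the same mature ring subunit with different import sequences. Atp5g1 and Atp5g3 were below the reference in all 12 tumours, at -0.69 ± 0.34 and -0.75 ± 0.29 (n = 12 each). Atp5g2 averaged -0.09 ± 0.28 (n = 12) and was below it in 7 tumours. The ratios of these 3 genes are each set against their own level in the reference and do not rank their levels in the tumours.

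Complex IV spanned the widest range of ratios, and its 3 lowest members were isoforms of muscle and heart. Cox8b, a small subunit of heart and skeletal muscle and also of brown fat, had a mean ratio of -5.93 ± 0.72 (SD, n = 12), while its general partner Cox8a averaged -0.03 ± 0.15 (n = 12). Cox6a2, the heart and skeletal muscle form of subunit VIa, averaged -5.25 ± 0.76, and the general form Cox6a1 averaged -0.53 ± 0.17 (n = 12 each). Cox7a1, the muscle and heart form of subunit VIIa, which brown fat also expresses, averaged -3.60 ± 0.68, and the general form Cox7a2 averaged -0.94 ± 0.49 (n = 12 each). All 3 muscle forms were below the reference in every tumour. Cox7a2l, a relative of Cox7a2 that joins complexes III and IV into supercomplexes, averaged 0.20 ± 0.30 (n = 12).

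The other isoforms did not show this gap. Cox4i2, a form of subunit IV known from lung and from low oxygen, averaged 0.39 ± 0.37 and was above the reference in 11 of 12 tumours, and the general Cox4i1 averaged -0.75 ± 0.34 (SD, n = 12 each). Cox6b2 and Cox7b2 are best known from testis. Cox6b2 averaged -0.72 ± 0.34, beside -0.65 ± 0.28 for the general Cox6b1 (n = 12 each). Cox7b2 averaged 0.10 ± 0.24 (n = 12), and Cox7b, its general partner, -0.61 ± 0.72 (n = 12). Ndufa4 averaged -0.87 ± 0.67 and Ndufa4l2, a gene known to be induced by the hypoxia factor HIF-1, -0.17 ± 0.91 (n = 12 each).

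The promoters of 2 muscle forms, their general partners, Cox6a1 and Cox7b are shown because these genes carry the contrasts within complex IV. Each line gives the 250 bases before the annotated start on the gene's own strand, from RefSeq on build GRCm38.p6, with capitals for the motif letters searched.
Cox8b (muscle and heart form, chr7:140900447-140900696, minus strand): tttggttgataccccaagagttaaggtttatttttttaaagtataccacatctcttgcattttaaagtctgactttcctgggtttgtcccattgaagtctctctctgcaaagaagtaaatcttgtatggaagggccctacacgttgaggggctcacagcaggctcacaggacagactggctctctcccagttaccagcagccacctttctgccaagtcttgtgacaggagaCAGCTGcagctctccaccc
Cox8a (general form, chr19:7217617-7217866, minus strand): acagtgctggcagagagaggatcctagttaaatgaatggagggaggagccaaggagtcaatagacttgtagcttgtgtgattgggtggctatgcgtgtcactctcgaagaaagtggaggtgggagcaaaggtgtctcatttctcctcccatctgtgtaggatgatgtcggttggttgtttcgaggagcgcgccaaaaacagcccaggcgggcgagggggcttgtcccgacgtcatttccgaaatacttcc
Cox7a1 (muscle and heart form, chr7:30183921-30184170, plus strand): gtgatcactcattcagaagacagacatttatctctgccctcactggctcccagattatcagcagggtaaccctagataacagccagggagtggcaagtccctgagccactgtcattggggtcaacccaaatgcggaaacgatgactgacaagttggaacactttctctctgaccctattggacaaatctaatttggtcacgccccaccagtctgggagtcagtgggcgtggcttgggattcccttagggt
Cox7a2 (general form, chr9:79759854-79760103, minus strand): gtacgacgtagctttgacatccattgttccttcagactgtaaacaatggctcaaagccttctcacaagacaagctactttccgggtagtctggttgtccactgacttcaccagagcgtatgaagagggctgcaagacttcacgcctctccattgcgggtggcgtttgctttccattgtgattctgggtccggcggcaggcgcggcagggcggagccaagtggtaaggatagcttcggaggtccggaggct
Cox6a1 (general form, chr5:115348959-115349208, minus strand): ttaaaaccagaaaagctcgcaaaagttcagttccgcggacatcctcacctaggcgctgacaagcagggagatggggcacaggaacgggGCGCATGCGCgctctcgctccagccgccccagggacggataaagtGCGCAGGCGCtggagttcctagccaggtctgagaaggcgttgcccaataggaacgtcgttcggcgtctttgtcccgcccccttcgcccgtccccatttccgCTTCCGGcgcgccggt
Cox7b (general subunit, chrX:106015450-106015699, plus strand): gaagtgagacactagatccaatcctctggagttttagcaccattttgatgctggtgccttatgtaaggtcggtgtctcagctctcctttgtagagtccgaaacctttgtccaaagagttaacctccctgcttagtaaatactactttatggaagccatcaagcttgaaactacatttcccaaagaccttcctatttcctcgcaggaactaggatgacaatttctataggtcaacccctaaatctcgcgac

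These 6 promoters differed in CpG content and in motif letters. The number of CG dinucleotides in the 250 bases was 1 for Cox8b and 4 for Cox7a1, against 11 for Cox8a and 14 for Cox7a2. It was 26 for Cox6a1 and 5 for Cox7b, and the median was 14.5 over the 77 members with a RefSeq promoter and 12 over 13431 measured genes. The letters searched were GCGC followed after any 2 bases by GCGC again, the core bound by NRF1, CCGGAAG, an ETS core of the kind bound by GABP, AAGATGGC for YY1 and the E-box CAGCTG, all on both strands, and TATAAA on the gene's strand. The capitals do not overlap within any of the 6. Cox6a1 held the NRF1 letters at 162 and 117 bases before the start and the ETS letters, read on the other strand as CTTCCGG, at 16 bases. Cox8b held an E-box at 19 bases, the kind of site that muscle regulators bind. None of the searched letters were present in the windows shown for Cox8a, Cox7a1, Cox7a2 and Cox7b.

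The NRF1 letters were in the promoters of 16 of 77 members (20.8%), against 5.64% of all 27025 genes with a RefSeq promoter and 9.22% of the 13431 measured ones. The ETS letters were in 18.2% of members, against 7.83% of all genes and 11.7% of measured ones. The other motifs were in a smaller share of members than of all genes, with the E-box in 7.79% against 14.7%, TATAAA in 2.6% against 8.94% and the YY1 letters in 1.3% against 1.83%. The measured genes were added as a second background after the first shares were seen, and the gaps for NRF1 and ETS letters are narrower against it. These matches are letters in a window, given without a test. GC content did not set members apart, with a median of 57.2% in members and 57.4% in measured genes.

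Few respiratory chain genes were called as differing between tumours, by a count that moved with the arrays used. Limma's moderated F-test called 4 of 92 members (4.35%) at an adjusted p under 0.05, against 18.4% of all genes tested. At an unadjusted p under 0.05 the shares were 13.0% of members and 30.4% of all genes. Among the 76 structural subunits 1 was called. The number of members called between tumours was 7 without T172, 8 without its first array and 9 without its second, with 23.3%, 24.2% and 23.6% of all genes called. It was 8 with quantile normalization (24.8% of all genes) and 3 without T176 (14.9% of all genes). The median SD over tumours was 0.34 for members and 0.39 for all genes, and the median SD within a tumour was 0.31 for both. The share of called members is below that of all genes, but this difference was not tested.

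**Figure D2:**
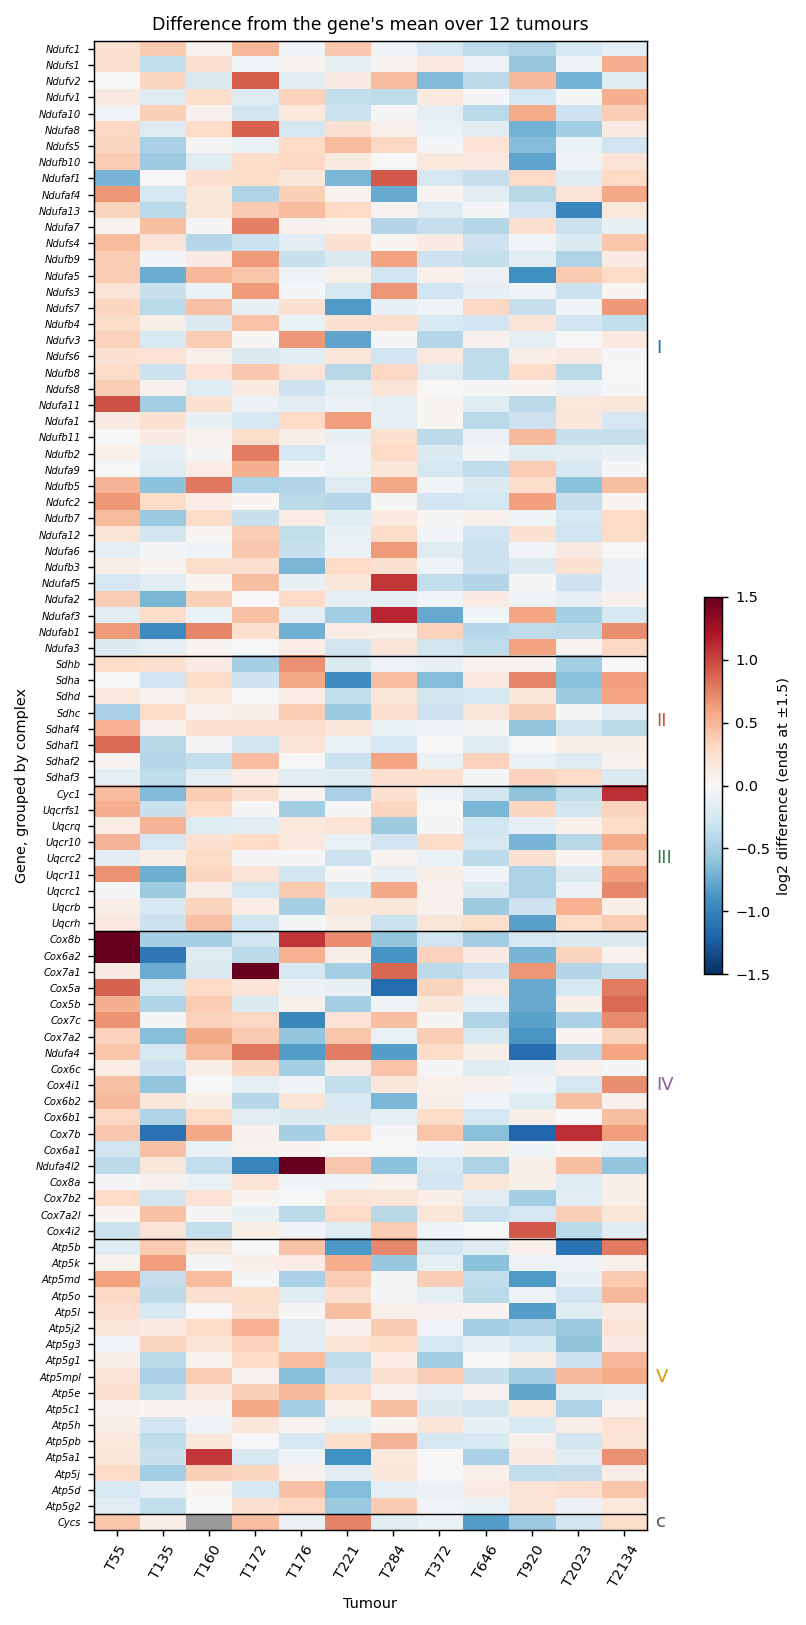
Log2 difference of each tumour (columns) from the gene's own mean over 12 tumours for the 92 genes (rows), grouped by complex and sorted by mean ratio within it; colour runs between -1.5 and 1.5, and grey marks the missing Cycs value in T160. Within complex IV, strong colour sits in Cox8b and Cox6a2 for T55, Cox7a1 for T172, Cox7b for T135, T920 and T2023, and Ndufa4l2 for T176. Outside it, Ndufaf3 for T284, Cyc1 for T2134 and Atp5b for T2023 lie about as far from their means as Cox7b does.

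All 4 called members belong to complex IV, and each lost its call when a certain tumour was left out. They are 21.1% of its 19 genes, near the 18.4% of all genes that were called. Of its 11 general subunits, 1 was called (9.09%). Cox6a2 was at -3.46 in T55, and the other 11 tumours lay between -6.32 and -4.73, so T55 stood apart from all of them. Its F-test adjusted p was 0.0157, and without T55 it was 0.0851. Cox8b, of the same tissues, was at -4.33 in T55, -4.85 in T176 and -5.21 in T221, and the other 9 lay between -6.50 and -6.13. Its adjusted p was 0.104, so it was not called, and its 2 arrays of T172 gave -6.76 and -5.68. Without T172 the adjusted p of Cox8b was 0.00704. In the comparison of T55 with the other 11 tumours, the difference was 1.95 ± 0.52 (SE) for Cox6a2 and 1.74 ± 0.53 (SE) for Cox8b, and limma's adjusted p was 0.876 and 1.0. Over all genes 0.0238% were called higher in T55.

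T55 was also the tumour with the highest ratios of skeletal muscle genes. Of 12 skeletal muscle markers, 11 had their highest ratio in T55, as did 5 of 6 slow and cardiac muscle markers. The skeletal muscle score, the mean over markers of the difference from each gene's own mean, was 1.77 in T55 and between -0.57 and 0.24 in the other 11. Outside T55 the score and Cox8b had different orders. In T176 and T221, the next highest for Cox8b at -4.85 and -5.21, the score was -0.07 and -0.14. In T160 and T2023, the next highest by score at 0.24 and 0.23, Cox8b was at -6.425 and -6.145. The fast-fibre genes Pvalb and Actn3 were at -0.20 and -2.16 in T55, and at most -2.41 and -4.21 in the others. Myh4, a fast myosin heavy chain, was at 2.97 in T55, and its next highest tumour was T160 at -0.81. Tnnt1, the slow troponin T, was at -4.17 in T55, and between -6.28 and -4.37 in the others. The score of slow and cardiac markers was 0.95 in T55. Cox7a1, the third muscle form, was at -3.48 in T55, inside the range of the other tumours. The part of muscle tissue in the Cox6a2 and Cox8b values was not tested.

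Cox7a1 followed other tumours. Its ratio was -2.04 in T172, -2.75 in T284 and -2.95 in T920, and the other 9 tumours lay between -4.35 and -3.48. Both arrays of T172 (-2.47 and -1.60) and of T284 (-2.61 and -2.89) were above those 9. The F-test adjusted p was 0.0365, and without T172 it was 0.0815. The skeletal muscle score was -0.30 in T172, -0.38 in T284 and -0.57 in T920, and no skeletal muscle marker was highest in any of the 3. The brown fat score, over 3 markers, was 0.33 in T172, -0.03 in T284 and -0.41 in T920, and 1.01 in T372, where Cox7a1 was at -3.99. Cidea, the brown fat marker that was called (adjusted p 0.0167 by limma), was highest in T172, at -2.25, with T372 next at -2.50. It was at -3.23 in T284 and -3.61 in T920. Of the 3 markers, 1 was above its own mean in T172. Ucp1, another of the 3, was at -5.62 there, against a mean over tumours of -5.50. The part of brown fat in the Cox7a1 values was not tested.

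Cox7b, a small subunit needed for complex IV assembly, was the called structural subunit. Its lowest tumour was T920 at -1.81, its median -0.44 and its highest T2023 at 0.49. T135, T646 and T176 were also low, at -1.73, -1.25 and -1.11, and the 8 remaining tumours lay between -0.64 and 0.49. The adjusted p was 0.033, and it was 0.0603 without T920, 0.0537 without T135 and 0.0532 without T2023. Ndufa4 (adjusted p 0.101) and Cox5a (0.131), both general subunits, came next among the structural subunits of complex IV and were not called. T920 was the lowest tumour for Ndufa4, at -2.01, and T284 the lowest for Cox5a, at -3.08.

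**Figure D3:**
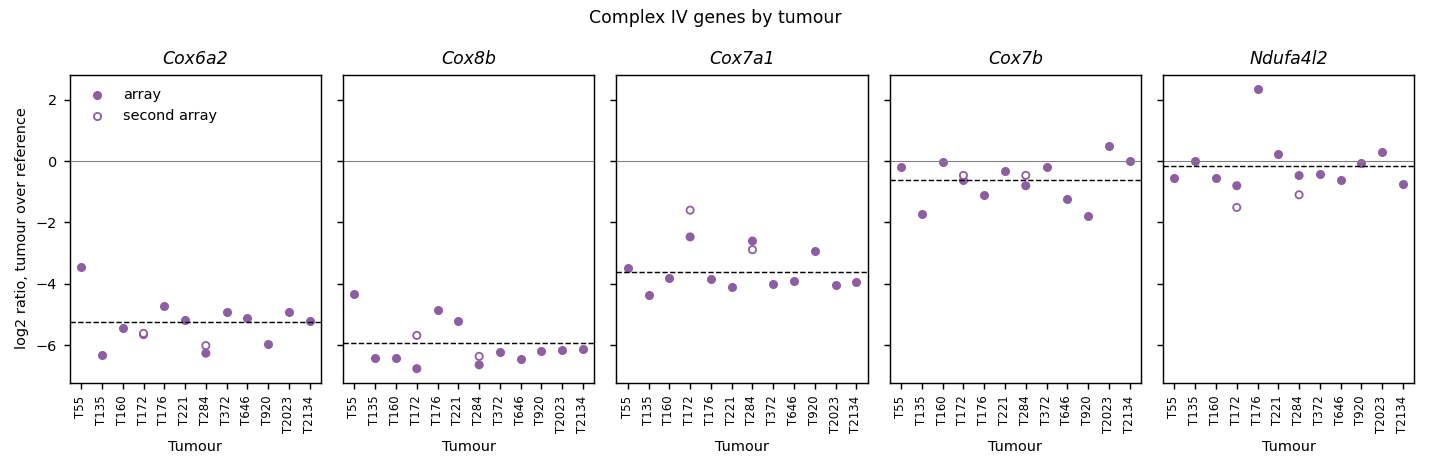
Log2 ratio of tumour over reference (vertical axis) by tumour for Cox6a2, Cox8b, Cox7a1, Cox7b and Ndufa4l2; each point is an array, open circles are the second arrays of T172 and T284, and the dashed line is the mean over tumours. T55 stands above the other tumours for Cox6a2 at -3.46, T172 for Cox7a1 at -2.04 and T176 for Ndufa4l2 at 2.36.

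Ndufa4l2 stood apart in T176. Its ratio was 2.36 there, and the other 11 tumours lay between -1.16 and 0.28 with T2023 the highest of them. The F-test adjusted p was 0.0198, and without T176 it was 0.33. Against the other 11 tumours the difference was 2.76 ± 0.45 (SE), with an adjusted p of 0.00297 by limma, a test in which T176 lends no spread of its own. It was the single call among the members in the comparisons of each tumour with the rest. Over all genes, 2.48% were called higher in T176, and 0.394% of all comparisons of a gene and a tumour were calls. T176 is the sample with the lowest luminal markers, with a luminal score of -5.01 against -0.43 to 1.46 in the other 11. Its hypoxia score was -0.07, inside the range of -0.68 to 0.95 in the others. Of 9 hypoxia response genes, 2 had their highest and 3 their lowest ratio in T176. Of the 9, 3 were above their own mean there. Vegfa was at -0.68 in T176 and Ndrg1 at 1.91, beside means over tumours of 0.79 and 0.88. Macrophage markers went separate ways in T176, with Cd68 at 2.81 and Mrc1 at -2.63. The part of cell make-up in the Ndufa4l2 value was not tested.

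T920 had the most members lower at an unadjusted p under 0.05, without a call. Of the 92, 11 were lower and 2 higher than in the other 11 tumours at that threshold, where 5.54% of all genes were lower and 6.69% higher, and the lowest adjusted p was 0.16. Over all genes, 0.136% were called lower in T920 after adjustment. By direction alone, members were lower than in the other tumours in larger number elsewhere, 70 in T646, 64 in T2023, 61 in T135 and 57 in T920. The matching shares of all genes by direction were not computed, so these counts cannot be called particular to the members. The lowest adjusted p was that of Atp5l, a membrane subunit of ATP synthase, at -1.71 in T920 against a mean of -0.81 in the others, a difference of -0.90 ± 0.24 (SE). The 11 include Ndufb10, Uqcrh, Cox7b2 and Atp5e, with differences of -0.87, -0.89, -0.57 and -0.85, so they come from complexes I, III, IV and V. Cox4i2 was 1 of the 2 higher members, at 1.30 in T920 against 0.31 in the others (adjusted p 0.176 by limma). The complex II subunits Sdha, Sdhb, Sdhc and Sdhd were all above their own means in T920, at -0.46, -2.37, -0.62 and -0.95. Sdhb was close to its mean of -2.41. Of the complex II assembly factors, Sdhaf4 had its lowest ratio in T920, at -1.08, and Sdhaf3 its highest, at 0.75.

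A score per tumour shows how the complexes moved together. It is the mean over structural subunits of the log2 difference from each gene's mean over 12 tumours. Over all 76 subunits it ran between -0.19 in T646 and 0.26 in T2134, and T55 (0.23) and T160 (0.18) were also high. Complex I was highest in T55 (0.26) and lowest in T2023 (-0.20). Complexes III and IV shared both ends. Complex III was at 0.49 in T2134 and -0.33 in T920, and complex IV was at 0.46 in T2134 and -0.50 in T920. Complex V was at 0.29 in T2134 and -0.23 in T2023.

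Complex II had another order. Its score was highest in T176 (0.44) and T920 (0.33), and in both of these tumours the complex IV score was below 0 (-0.34 and -0.50). It was lowest in T221 (-0.52), T2023 (-0.42) and T372 (-0.34). With T176 left out and the means taken over the other 11 tumours, the complex II score was highest in T920 (0.37) and lowest in T221 (-0.48), and the highest and lowest tumours of the other complexes were as before. As a description over 12 tumours, the 6 pairs of complex II subunits had a mean Pearson r of 0.49, and the 44 pairs of a complex II and a complex IV subunit -0.10. The mean r was 0.18 within complex I, 0.30 within complex III, 0.23 within complex IV and 0.23 within complex V. It was 0.29 between complexes III and IV, 0.19 over all 2850 pairs of structural subunits and 0.0019 over all pairs of genes. These values come from the same 14 arrays, share any offset of an array and carry no test.

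**Figure D4:**
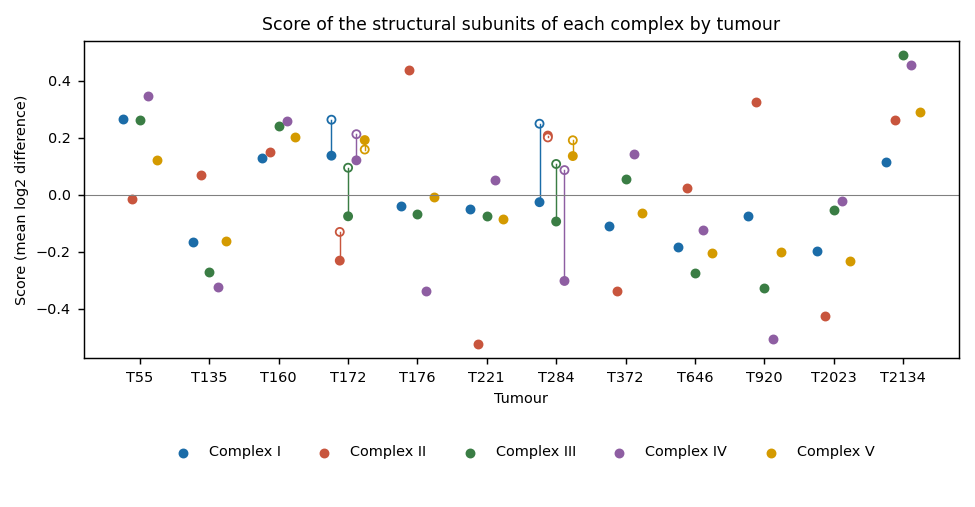
Score of the structural subunits of each complex (vertical axis, mean log2 difference from each gene's mean) by tumour; for T172 and T284 the filled circle is the first array, the open circle the second, joined by a line. Complexes III and IV are highest in T2134 (0.49 and 0.46) and lowest in T920 (-0.33 and -0.50), while complex II is highest in T176 (0.44).

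The second arrays set how far these scores can be read. The score of all structural subunits was higher on the second array than on the first, by 0.09 in T172 and 0.23 in T284, and the median difference between any pair of tumours was 0.16. The gap between the arrays of T284 was 0.39 for complex IV and 0.28 for complex I, against median differences between tumours of 0.30 and 0.16. In T172 the gaps of these complexes were smaller, 0.09 and 0.13. Complex III had gaps of 0.17 in T172 and 0.20 in T284, against a median difference of 0.25. Those of complex V were -0.03 and 0.06, against 0.20. For complex II the gaps were 0.10 in T172 and -0.01 in T284, with a median difference between tumours of 0.33. Behind these small gaps the catalytic subunits moved in opposite directions. Second minus first array was -0.54 in T172 and -1.12 in T284 for Sdha, and 0.54 and 1.21 for Sdhb. The median of second minus first array over members was 0.18 in T172 and 0.20 in T284, against -0.03 and -0.06 over all genes, and 44 of 92 members (47.8%) were higher on both second arrays, against 26.3% of all genes. The median difference between tumours in the overall score was thus smaller than the gap between the arrays of T284.

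The neighbouring mitochondrial lists were not all as low against the reference. Structural subunits had a median mean ratio of -0.76. The pyruvate dehydrogenase and citric acid cycle list was at -1.34 and fatty acid oxidation at -1.69. Mitochondrial import and carriers were at -0.28, complex assembly and insertion factors outside the members at -0.20, the mitochondrial ribosome at -0.16 and biogenesis regulators at 0.02. Glycolysis was at 0.49 and the hypoxia response at 0.79, above the median of 0.01 of all genes. The F-test called 1 of 32 assembly and insertion factors, 2 of 75 mitochondrial ribosome genes, 2 of 21 import and carrier genes and 2 of 18 biogenesis regulators. It called 3 of 16 citric acid cycle genes, 0 of 16 fatty acid oxidation genes, 5 of 14 glycolysis and 7 of 9 hypoxia genes. All of these calls stand against 18.4% of all genes tested. At an unadjusted p under 0.05 the share was 25.0% for fatty acid oxidation, against 30.4% of all genes.

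**Figure D5:**
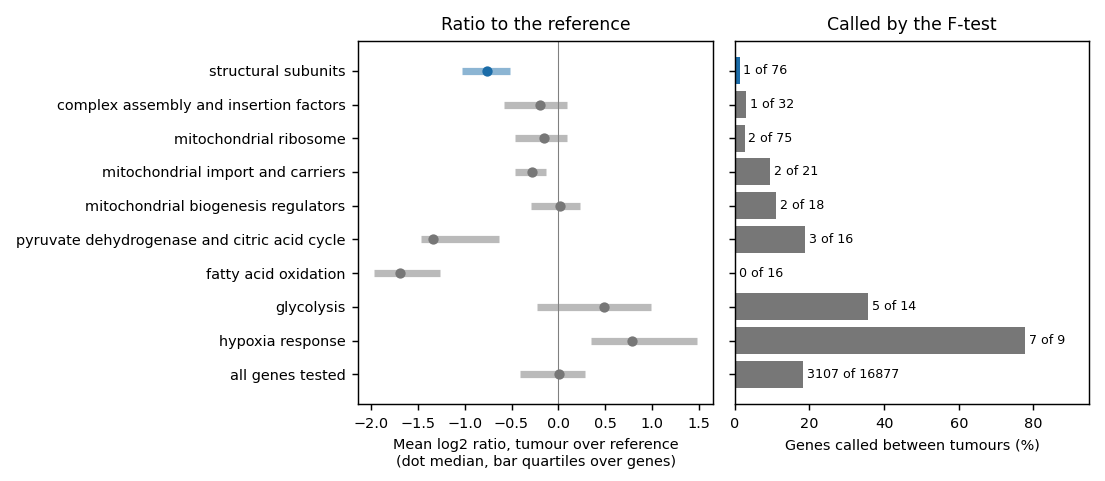
Left, median and quartiles over genes of the mean log2 ratio of tumour over reference for structural subunits (blue), related lists and all genes tested; right, the percentage of each list called by the F-test between tumours, with counts. Structural subunits sit at -0.76 with 1 of 76 called, glycolysis at 0.49 with 5 of 14 called.

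A few single genes of these lists were called. Acad9, which helps assemble complex I, ran between -0.32 in T176 and 2.31 in T284 (limma F-test adjusted p 0.0113). Ppargc1b, a coactivator of mitochondrial biogenesis, ran between -3.53 in T284 and -1.21 in T55 (adjusted p 0.0185), and Gabpb1, a subunit of the ETS factor GABP, between 0.53 in T135 and 2.43 in T284 (adjusted p 0.0245). In T284 and T172 Gabpb1 was highest, at 2.43 and 2.31, while Ppargc1b was at -3.53 and -2.97 there. Pdha1, of the pyruvate dehydrogenase complex, ran between -1.11 in T176 and 1.47 in T2134 (adjusted p 0.0138). Cs, citrate synthase, ran between -2.65 in T284 and -0.07 in T372 (adjusted p 0.0148), and Suclg2, of succinyl-CoA synthetase, between -0.98 in T2023 and 1.05 in T920 (adjusted p 0.0489). In the mitochondrial ribosome, Mrps6 was at 3.66 in T172 and 3.43 in T284 and at most 1.82 elsewhere (adjusted p 0.000953). Mrps17 ran between -2.13 in T920 and 1.41 in T2023 (adjusted p 0.0304). Among import genes, the receptor Tomm20 ran between -0.83 in T646 and 1.01 in T221 (adjusted p 0.0482), and the chaperonin Hspe1 between -0.60 in T176 and 1.03 in T221, with no value in T55 (adjusted p 0.0485). In glycolysis, the aldolase Aldoc ran between 0.99 in T176 and 4.36 in T284 (adjusted p 0.000768), and the glucose transporter Slc2a1 between -0.12 in T920 and 2.96 in T221 (adjusted p 0.00761). Pfkp, a phosphofructokinase, ran between -0.71 in T55 and 2.59 in T284 (adjusted p 0.0122). Of the hypoxia response genes, Ndrg1, Vegfa and Adm were all highest in T2023, at 3.27, 2.46 and 3.43 (adjusted p 0.00225, 0.011 and 0.00966). Without T176, where Acad9, Pdha1, Hspe1 and Aldoc were lowest, their adjusted p was 0.018, 0.0278, 0.0746 and 0.00116, and that of Tomm20 was 0.062. Hspe1 and Tomm20 were thus not called without T176.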

How the data were processed

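Per the labels, tumour RNA carried Cy5 and the common mouse reference Cy3. The deposited table holds a log2 value per probe and array, taken here as tumour over reference. Base 2 is inferred from the range of -9.19 to 7.42. How the authors corrected background and normalized is not given in the sources used here. Of all values 0.172% were missing, and the number of arrays limits the precision.

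Of 22575 probes, 18658 had 1 symbol in the platform annotation, 30 had several and 3887 had none. Symbols were updated through RefSeq GRCm38.p6, by Entrez identifier for 18445 probes and by accession for 24, and 189 were kept. Probes of a gene were averaged, and an array missing 1 of them gave no value. Of the members, 3 had 2 probes, whose means differed by 0.63 for Atp5pb, 0.33 for Cycs and 0.31 for Ndufs6. Genes measured on fewer than 12 of 14 arrays, or on both arrays of neither T172 nor T284, were left out. A moderated F-test over 12 tumours and a comparison of each tumour with the other 11 (arrays of T172 and T284 averaged) were run with limma 3.58.1 in R 4.3.3, with Benjamini-Hochberg adjustment over all genes and a threshold of 0.05. The spread within a tumour rests on the 2 repeated tumours, with a prior of 7.27 degrees of freedom and an SD of 0.313. Python 3.11.15 did the rest.

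The members, roles, 16 gene lists and tests were chosen with earlier results of these data known, and motifs and shown promoters after the values were seen. Named are members called by either test, the 2 highest and 2 lowest mean ratios of each complex, complex II, Cycs, Cyc1, isoforms with their partners, and up to 3 called genes of each list with the largest SD. Other genes were named after their values were seen, among them Ndufv1, Ndufv2, Uqcrc1, Cox5a, Atp5l, Ndufb10, Atp5e and Krt8. On simulated data with 16877 genes and independent errors, a true SD over tumours of 1 was found by the F-test in 64% of 100 genes and an SD of 2 in 99% of 100, beside 11 false calls. Both SDs are above the highest SD of a member, 0.91, and the median of 0.34. How often a spread as small as that of most members would be found was not simulated. A shift by 2 in 1 tumour was found in 50% of 100 genes and a shift by 4 in 89% of 100, beside 13 false calls. Alternatives covered probe choice, normalization, missing values, the prior, the threshold, symbols, the member set, the second arrays, and leaving out each array or tumour.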

Additional observations from a re-analysis of the deposited data

How the results depend on the processing

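The medians of the 5 complexes stayed below 0 under every alternative run, and 106 of 107 alternative values moved by less than the SD over tumours. The exception was complex II, which was at -1.16 with structural subunits only. Leaving out arrays or tumours gave ranges of -0.70 to -0.64 for complex I, -0.76 to -0.70 for complex II, -0.95 to -0.89 for complex III, -0.80 to -0.72 for complex IV and -0.70 to -0.60 for complex V. The count of 4 members called between tumours became 8 with quantile normalization (24.8% of all genes called), 0 at an adjusted p under 0.01 (9.42%) and 1 among structural subunits. It ranged between 3 and 9 when arrays or tumours were left out. It was 7 without T172, 8 without its first array and 9 without its second, with 23.3%, 24.2% and 23.6% of all genes called, and the cause was not tested. The 1 call of a single tumour, Ndufa4l2 in T176, fell to 0 without T176 and among structural subunits, so its range was 0 to 1. Of the 88 members not called, 20 passed under at least 1 of 24 settings and 68 under none. Most of the 20 passed only with the second arrays as a replicate block, a fit that called 43.0% of all genes.

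The mark biorep is on 2 tumours only and does not establish a pairing of arrays by batch. With the second arrays as a replicate block in the fit, 24 members were called, with 43.0% of all genes. Second minus first differences of the 2 tumours correlated across genes at r = 0.40 over members and 0.33 over all genes, and genes are not independent replicates. Averaging the available probes where an array lacked 1, added after the first fits were seen, called 4 members and 18.3% of all genes. Values of list genes and scores without T176 were also added after the data were seen, and among the named list genes the calls of Tomm20, Hspe1, Tnnt1, Krt18 and Cd68 were lost there. With 12 tumours and 2 repeats, most tumours have no spread of their own, and signal over background is unknown.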
